A study of Homo sapiens with 2 samples.

Results

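The data are crosslink positions, read as likely contacts of the Cas9 protein with RNA, and the sites described here are those that recurred between annotated genes. The sites were chosen by position and by measured score. A site was taken when both libraries listed a region with the same chromosome, start, end and strand, its deposited score was below 300 in both, it lay on chromosomes 1 to 22 or X, and its midpoint fell in no RefSeq gene span on either strand. A region was left out when the same library also had a region on the opposite strand whose minus-strand start lay 1 to 110 bases beyond the plus-strand start. This left 721 sites, of 4204 regions in replicate 1 and 5995 in replicate 2. Every one of the 721 was a single base.

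H1 is an established line of human embryonic stem cells, and H1-iCas9 carries a FLAG-tagged Cas9 that doxycycline switches on. Both libraries come from H1-iCas9 cells given 1 µg/ml doxycycline for 24 hours and crosslinked with ultraviolet light at 254 nm and 300 mJ/cm2, after which Cas9 and the RNA joined to it were collected with an anti-FLAG antibody. They form 1 group of 2 replicates, and no label says that the replicates were separate cultures, so differences between them may be technical. No library without Cas9 and no measurement of RNA abundance was analysed here, and the labels name no guide RNA.

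Cas9 is the bacterial nuclease of genome editing, which holds a guide RNA and is directed by it to matching DNA. In irCLIP, ultraviolet light fixes a protein to RNA it touches. The complementary DNA made from that RNA tends to end at or next to the fixed base, so a region marks a likely contact. How the deposited base was set from that end is not stated, so it may not be the contacted base itself. Sequence between annotated genes is largely made of old transposable elements and also holds enhancers, run-on RNA beyond gene ends, RNA that starts divergently from promoters, and transcripts that no catalogue lists. A site there can therefore come from several kinds of RNA, and the position relative to the neighbouring genes is what the files allow to be measured.

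For 6 of the sites the reference table of gene starts holds the sequence, because they lie within 250 bases upstream of an annotated start. Their bases are shown because these are the sites with known surroundings at a promoter. Each is written 5′ to 3′ on the strand of the site, with the site in a capital letter, from RefSeq (build GRCh38.p14, whose chromosomes are those of hg38).
TRIL: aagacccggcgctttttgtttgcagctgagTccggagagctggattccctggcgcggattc
GABBR2: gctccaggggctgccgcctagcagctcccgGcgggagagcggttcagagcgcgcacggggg
CELF2 and CELF2-DT: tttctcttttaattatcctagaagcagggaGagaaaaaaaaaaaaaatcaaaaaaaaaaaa
LOC100507560: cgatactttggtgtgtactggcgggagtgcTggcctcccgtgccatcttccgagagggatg
LOC124903283: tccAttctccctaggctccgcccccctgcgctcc
CCNF: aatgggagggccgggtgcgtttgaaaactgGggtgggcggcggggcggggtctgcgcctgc

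The base at the site was G in GABBR2, CELF2 and CCNF, T in TRIL and LOC100507560, and A beside LOC124903283, so no base was common to all. The site beside CELF2, an RNA-binding protein of splicing in brain and muscle, was followed by 27 A among the next 30 bases, with a longest run of 14, whereas the other 5 had between 0 and 5 A there and no run above 1. It lies at 10462507 on the minus strand of chromosome 10, in a gap of 200 bases between CELF2, which is on the plus strand, and its divergent transcript CELF2-DT, 158 bases upstream of the annotated start of CELF2-DT on the same strand. Its scores were 35.2 in replicate 1 and 18.9 in replicate 2.

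On the strand of their gene lay the sites of GABBR2, a subunit of the receptor for the transmitter GABA, at 98709103 on the minus strand of chromosome 9, and of CCNF, an F-box cyclin that marks proteins for degradation, at 2429373 on the plus strand of chromosome 16. The GABBR2 site was 168 bases upstream of the start, with scores of 44.0 and 50.004 in replicates 1 and 2. The CCNF site was 74 bases upstream, with scores of 23.1 and 34.7. On the opposite strand lay the site of TRIL, a leucine-rich repeat protein of Toll-like receptor signalling, at 28958371 on chromosome 7, 41 bases upstream of the start, with scores of 54.6 and 107.0.

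The site at 21456150 on the plus strand of chromosome 14 lay in a gap of 273 bases, 27 bases upstream of CHD8, a chromatin remodeller on the minus strand, and 247 bases upstream of LOC124903283 on its own strand. Its scores were 24.6 and 45.2. The site before LOC100507560, a long noncoding RNA gene, lay at 5015035 on the minus strand of chromosome 12, 43 bases upstream and opposite to the gene, with 21.4 and 20.8. All 6 therefore scored well below the limit of 300, and in 4 of them replicate 2 was higher.

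The GC content of the 300-base windows around these starts was 79.0% for GABBR2, 77.3% for CCNF, 68.0% for TRIL, 57.7% for LOC124903283, 49.7% for LOC100507560 and 41.0% for CELF2, where the median of 34943 such windows was 58.7%. The windows thus spread over both sides of the median. The GC box (GGGCGG, either strand) was found in each of these windows and in 44.9% of all windows. The CCAAT box (CCAAT) was found in CCNF and LOC124903283 and in 34.6% of all, and the TATA box (TATAAA) in TRIL and LOC100507560 and in 11.6% of all. None of the 3 strings lies within another. A match is a description of the window and not a known site. Of the 682 sites on chromosomes that the table of starts covers, these 6 are 0.880% (exact 95% binomial interval 0.324 to 1.90), and positions taken every 10 kb between genes fell in such a window in 0.311% of cases.

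The 721 sites are what remained of 915 identical regions between genes, after 108 with a score of 300 or more in at least 1 library and 86 in facing opposite-strand pairs were set aside. Recurrence chose the sites, so the shares of regions that recurred are given only as a description. Of the replicate 1 regions under the same limits, 49.9% of 1445 between genes and 50.6% of 2305 in genes recurred in replicate 2. Of those of replicate 2, 40.4% of 1785 between genes and 38.3% of 3041 in genes recurred in replicate 1. A region counted as recurring only when its identical counterpart also met the score and facing-pair limits in the other library. Regions matched in position but over a limit there count as not recurring. Under the same limits 1166 recurrent sites lay in genes, so the sites between genes were 38.2% of 1887 (36.0 to 40.4). Positions on an even grid lay between genes in 44.8% of cases, or in 41.4% when wide gaps (1 Mb or more from gene to gene) were left out. The grid includes positions to which no read can be placed, and their part in the difference was not tested.

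The deposited score has no stated scale, and it chose the sites, so it is described without a test. In replicate 1 the sites had a median score of 30.7, with quartiles of 17.8 and 57.8 and a range from 0.0644 to 292.4. In replicate 2 the median was 34.4, the quartiles 15.3 and 79.3 and the range 0.146 to 293.9. The recurrent sites in genes had medians of 30.7 and 37.1, so the levels of the sites between genes lay close to those in genes in both libraries.

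The libraries ranked the sites alike in part. The Spearman correlation of the scores over the 721 sites was 0.59, against 0.53 over the 1166 in genes, and it is a correlation across sites that share the same pair of libraries. Of the 182 sites at or above the upper quartile in replicate 1, 107 (58.8%) were so in replicate 2, where 181 sites reached it. In 395 sites the scores lay within 2-fold of each other. Replicate 2 had the higher score in 390 sites and replicate 1 in 331.

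A few sites differed widely. At 11544511 on the plus strand of chromosome 1, 6960 bases beyond the end of DISP3, a patched-domain membrane protein, the score was 0.0644 in replicate 1 and 69.3 in replicate 2. At 108236528 on the plus strand of chromosome 2, upstream of the sulfotransferase SULT1C3, it was 5.77 and 185.7. The opposite held at 25061503 on the minus strand of chromosome 21 near LINC01692, with 22.9 and 0.146, and at 28738619 on the minus strand of chromosome 6, which lies 3119 bases from TRV-AAC6-1, a valine tRNA gene, with 20.6 and 0.402. In all, 14 sites were more than 8-fold higher in replicate 2 and 23 more than 8-fold higher in replicate 1. These examples were taken from the extremes of the log ratio after the values were seen.

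Scores were often exactly equal between sites. The most common value was 10.7 in replicate 1, held by 17 sites, and 18.0 in replicate 2, held by 23. In replicate 1, 390 of the 721 sites had a score that another of them also had, and in replicate 2, 400. The order of sites with equal scores carries no information.

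The sites with the highest summed scores lay beside genes of unlike function. The highest was at 6772414 on the plus strand of chromosome 12, 106 bases from LAG3, an inhibitory receptor of T cells, in a gap of 1567 bases, with 281.9 in replicate 1 and 279.7 in replicate 2. The next was at 109931714 on the plus strand of chromosome X, 70655 bases upstream of TMEM164, an acyltransferase, with 271.0 and 271.9. The libraries gave nearly the same score at both, with a log2 ratio of replicate 2 over replicate 1 of -0.01 at the first and 0.0049 at the second.

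The third lay at 82457633 on the minus strand of chromosome 6, 41747 bases from the long noncoding gene LOC124901352, with 260.2 and 276.9. On chromosome 4, the site at 69773037 on the plus strand was 12417 bases upstream of SULT1B1, a sulfotransferase on the other strand, with 247.2 and 271.2. On chromosome 3, the site at 142589416 on the minus strand was 2261 bases from RNA5SP143, a pseudogene of 5S ribosomal RNA, with 239.8 and 274.7. These were single sites, with no second recurrent site between genes within 10 kb.

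The sixth lay at 20545208 on the minus strand of chromosome 8, 69621 bases from the small nucleolar RNA gene SNORD3F, with 261.4 and 247.6. At 62590659 on the plus strand of chromosome 18, 3930 bases beyond the end of ZCCHC2, a zinc finger gene on the same strand, the scores were 266.0 and 231.8. The site at 125776866 on the minus strand of chromosome 6 lay 3381 bases from TRE-CTC1-7, a glutamate tRNA gene, and 4249 bases upstream of NCOA7 on the other strand, with 199.5 and 292.5. It had the largest gap between the libraries among these 10, at 0.55 on the log2 scale.

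The last 2 of the 10 lay at 40356491 on the minus strand of chromosome 3, 30693 bases upstream of the ectonucleotidase ENTPD3, with 262.9 and 224.8, and at 123892587 on the plus strand of chromosome 5, 167207 bases from LINC01170, with 217.4 and 265.4. Just under the limit of 300 the highest score of a site was 293.9, at 70612225 on the minus strand of chromosome 1, with 74.0 in replicate 1. Just over it, the site at 47380284 on the minus strand of chromosome 1, with 66.5 and 300.3, was left out.

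The share of recurrent sites that lay between genes was lowest in the group with the highest scores. Outside facing pairs and with no score limit, they were 41.0% of 490 recurrent sites with a mean score under 20 (36.6 to 45.5) and 33.7% of 205 with a mean of 300 or more (27.2 to 40.6). The groups from 20 to 50, 50 to 100 and 100 to 300 had 38.1%, 35.2% and 36.6%. All 5 intervals overlapped, and the trend was not tested.

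The sites lay at all distances from genes. The median distance to the nearest gene span was 16950 bases, with quartiles of 5333 and 43412 and a maximum of 634077. All regions between genes of a single library gave 17506 in replicate 1 and 16145 in replicate 2, and the even grid gave 18461 without the gaps of 1 Mb or more and 24324 with them. Within 1 kb of a gene lay 50 sites, 6.93% (5.19 to 9.04), against 5.20% of the grid without large gaps, 6.44% of replicate 1 regions and 10.8% of replicate 2 regions (9.36 to 12.3). The intervals of the sites and of all replicate 2 regions did not overlap. The sites are part of those regions, so the intervals are not independent, and the difference was not tested. Over 100 kb away lay 78 sites, 10.8% (8.65 to 13.3), against 9.57% of the grid without large gaps and 20.9% with them.

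Besides the promoter sites, the nearest to a gene was at 51464766 on the plus strand of chromosome 6, 1 base outside LOC124900230, a small nucleolar RNA gene, with scores of 91.9 and 121.9. The site at 115922894 on the plus strand of chromosome 8 was 34 bases from the noncoding gene LOC107986903, with 34.3 and 7.89. Left out just inside a gene were sites 3 bases within EBF1 and 7 bases within MBD2, with 22.8 and 115.1 and with 29.2 and 296.8 in replicates 1 and 2. Sites this close to an edge depend on where the annotation ends a gene.

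The most distant site was at 179461421 on the minus strand of chromosome 4, 634077 bases from LOC124900818, with 121.4 in replicate 1 and 260.6 in replicate 2. It shared a gap of 1278117 bases with 2 others, at 178894010 on the minus strand (24.6 and 49.5) and 178946328 on the plus strand (38.3 and 15.3). On chromosome 12 the site at 34850103 on the minus strand was 599838 bases from the pseudogene AK6P1, with 54.5 and 9.64, and that at 34252666 in the same gap of 3325077 bases had 38.2 and 26.2. Whether reads in so wide a gap can be placed uniquely was not examined. Sites on chromosome 13 (55621077, 39.2 and 88.1), X (99299852, 59.1 and 205.0) and 8 (113777628, 36.0 and 39.8) were 375412, 357148 and 340689 bases away. The 5 most distant sites thus covered a wide range of scores, and over all sites the summed score and the distance had a Spearman correlation of -0.012.

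Among gaps between genes of under 1 Mb, the number of sites per length was highest in the narrowest and lowest in those of 100 to 500 kb. In gaps below 10 kb there were 47 sites, or 0.823 per Mb, in gaps of 10 to 50 kb 203 or 0.652, and in gaps of 50 to 100 kb 157 or 0.643. In gaps of 100 to 500 kb there were 269 or 0.526 per Mb, 37.7% of sites (34.2 to 41.4) on 43.3% of the length. Gaps of 500 kb to 1 Mb had 37 or 0.643, and only 7 sites lay in wider gaps. The length between genes was 1358 Mb with those wider gaps and 1181 Mb without them, so their number per length was lower still. The share of length lay above the interval in the 100 to 500 kb class and just below it in gaps under 10 kb, which held 6.59% of sites (4.88 to 8.67) on 4.83% of the length. These shares are of the 713 sites in gaps under 1 Mb, and 1 more site lay beyond the outermost gene of chromosome 2.

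Long noncoding RNA genes were the nearest neighbour of 285 sites, 39.5% (35.9 to 43.2), protein-coding genes of 221, 30.7% (27.3 to 34.2), and pseudogenes of 184, 25.5% (22.4 to 28.9). On the grid these shares were 40.7%, 25.6% and 29.2%. The protein-coding share lay above the grid also among all regions between genes, with 30.7% in both replicate 1 and replicate 2, the same value as for the recurrent sites. Those regions include the recurrent sites, so the equal shares are not separate evidence. The grid share of pseudogenes lay just above the interval of the sites. Median scores in replicates 1 and 2 were 33.7 and 37.1 beside protein-coding genes, 30.7 and 37.1 beside long noncoding genes and 29.2 and 30.7 beside pseudogenes.

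Few sites lay close to genes of small structured RNAs, and their shares were above those of the grid at each distance, within wide intervals. Within 200 bases of a tRNA, snRNA, snoRNA or miRNA gene lay 2 sites, 0.277% (0.0336 to 0.998), against 0.0381% of the grid. Within 1 kb lay 3 sites, 0.416% (0.0859 to 1.21), against 0.158%, and within 10 kb 12, 1.66% (0.863 to 2.89), against 1.48%. The 3 were the site beside LOC124900230, 1 at 8987240 on the minus strand of chromosome 21, 62 bases from MIR3648-2, with 51.6 and 46.7, and 1 at 136840802 on the minus strand of chromosome 7, 291 bases from the snoRNA gene LOC124901850, with 24.4 and 3.26. These classes were compared after the values were seen, and members of multicopy families can share reads.

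RNA that runs on past a gene end lies downstream on the strand of the gene. RNA that starts divergently at a promoter lies upstream on the other strand. Which RNA the sites came from was not tested, and a share on the gene strand pools both sides. Strand was known for 27195 of 59098 genes, and 682 sites could be set against the nearest of these. That gene was the nearest gene of all for only 337 sites. For the others a closer gene of unknown strand was passed over, as at LAG3, where the gene used was MLF2 at 19273 bases. Of the 682 sites, 341, 50% (46.2 to 53.8), were on the strand of that gene. Downstream of the gene 171 lay on its strand and 180 on the other, and upstream 170 and 161. Over the 682, each of these 4 shares had an interval that included 25%. Over the 337 alone, 163 lay on the strand of the gene, 48.4% (42.9 to 53.8). There the 68 sites downstream on the gene strand were 20.2% (16.0 to 24.9), the lowest of the 4 positions, against 92 downstream on the other strand. Their interval lay below an equal share of 25%, but equal shares are not what the grid gives. With both strands counted, 47.5% of the 337 lay downstream (42.0 to 53.0), against 54.5% of grid positions in this setting.

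Of 169 sites within 10 kb of a gene of known strand, 36 lay downstream on its strand (21.3%, 15.4 to 28.3), 41 downstream on the other, 49 upstream on its strand (29.0%, 22.3 to 36.5) and 43 upstream on the other. The upstream side held 54.4% (46.6 to 62.1) of them, and 46.4% of grid positions within 10 kb. Over all 682 sites the upstream share was 48.5% (44.7 to 52.4), against 44.7% of the grid, and relative to the nearest protein-coding gene of known strand it was 55.3% (51.5 to 59.1), against 51.2%. In each of these 3 settings, which share sites, the grid value lay just below the interval. Among the 173 sites over 100 kb from such a gene the upstream share was 41.0% (33.6 to 48.8). All regions between genes gave 46.8% in replicate 1 and 48.5% in replicate 2.

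Among sites within 10 kb, the highest summed scores upstream on the gene strand were at 1879247 on chromosome 20, 3385 bases before the noncoding gene LOC124904857 (130.8 and 241.2 in replicates 1 and 2), and at 49238074 on chromosome 17, 7287 bases before PHOSPHO1, a phosphatase of bone mineralisation, and 203 bases from the noncoding gene LOC124904022 (247.1 and 86.8). Upstream on the other strand, after the site near NCOA7 given above, came the site at 182760858 on chromosome 1, 8482 bases before RGS8, a regulator of G protein signalling (267.0 and 153.8). Downstream on the gene strand, the sites given above near RNA5SP143 and ZCCHC2 came first. The strand of RNA5SP143 was not known, and the gene used for its site was PLS1-AS1, 6493 bases away. After them came the site at 22447379 on chromosome 19, 8713 bases beyond LOC105376917 and 555 bases from the pseudogene BNIP3P32 (183.1 and 281.1). Downstream on the other strand the highest was the site at 38737637 on chromosome 21, 1384 bases beyond LINC00114 (233.8 and 174.5). High scores were present in all 4 positions.

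Of 2 short lists of genes, 1 of pluripotency and 1 of the neural lineage, no member was the nearest gene of a site. The 31 matched pluripotency genes and the 31 neural lineage genes had 0 of 721 sites each, which allows a share of up to 0.416% by a limit of 3 counts (the exact 95% upper bound is 0.510%). The lists are not complete, and other genes of neural development were nearest to a site, such as the transcription factor genes NEUROD6, DLX5 and GSX1, which were picked with their values known. Their scores in replicates 1 and 2 were 88.9 and 210.4 for NEUROD6, 51.6 and 128.3 for DLX5, and 69.5 and 15.3 for GSX1. The grid gave 0.452 and 0.433 sites for these lists, so a shortage could not have been detected. A further list, of 48 neuronal adhesion and guidance genes, was like the others chosen with earlier results of these data known. Such genes help axons find and hold their targets. The grid gave 0.354%, or 2.55 sites, for this list. Of its 48 genes, 5 were nearest to a site, 0.693% of sites (0.226 to 1.61), an interval that includes the grid share.

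These were NTM, a cell adhesion molecule, with a site at 132354691 on the plus strand of chromosome 11, 17869 bases beyond its end on the same strand and with scores of 47.1 and 45.2. The others were CDH12, a cadherin (chromosome 5, 22936908, 13.3 and 66.0), CSMD3 (chromosome 8, 36.0 and 39.8, given above), ROBO2, a receptor of axon guidance (chromosome 3, 77667746, 21.0 and 42.5), and NTNG1, a netrin-family protein (chromosome 1, 107100900, 10.5 and 20.8). Each gene had 1 site, and the closest of them, that of ROBO2, was 17782 bases from its gene.

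The sites followed the length of DNA between genes. Over 23 chromosomes the number of sites and that length correlated at a Pearson r of 0.91 and a Spearman rho of 0.90, or 0.95 and 0.94 without gaps of 1 Mb or more. With the 2 chromosomes of most extreme length removed, these r values were 0.88 and 0.94. The density was 0.610 sites per Mb, with all 721 sites set over the length without the large gaps. Of these sites, 7 lay in such gaps and 1 beyond the outermost gene. They also stay in the counts of each chromosome and in the correlations. Chromosome 19 had the highest, with 17 sites and 0.954 per Mb, where its length gave 10.9 (exact 95% Poisson interval of the count 9.90 to 27.2), and chromosome 15 the lowest, with 12 sites and 0.395 per Mb, where its length gave 18.5 (6.20 to 21.0). The number given by length lay within the counting interval on all 23 chromosomes.

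The share of recurrent sites that lay between genes was 38.2% in all and went from 24.5% on chromosome 15 (12 of 49 sites) to 51.1% on chromosome X (46 of 90). Chromosome 5 had 50%, with 51 sites in genes and 51 between them. On chromosome 7 the share was 31.4%, and the median scores of its 33 sites were 51.6 in replicate 1 and 26.7 in replicate 2. These extremes were taken after the values were seen.

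Few of the sites that remained after facing pairs were set aside had a close companion. The 86 sites set aside each had a region close by on the opposite strand. The scarcity of companions is therefore in part fixed by the choice of sites, above all on the opposite strand. Of the 721, 711 had no other of them within 10 kb and 656 none within 100 kb. Counting every region of either library, 3 sites had another within 100 bases on their strand and 45, or 6.24% (4.59 to 8.26), had one within 10 kb on any strand. Within 100 kb 307 sites, or 42.6% (38.9 to 46.3), had another region, against 44.9% of recurrent sites in genes. The closest pair was on the minus strand of chromosome 7, 9 bases apart at 112730602 and 112730611 beside the pseudogene MIPEPP1, with 66.6 and 101.4 in replicate 1 and 12.1 and 16.7 in replicate 2. Both were higher in replicate 1.

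On chromosome X, sites at 136896883 on the minus strand (39.7 and 211.4) and 136905733 on the plus strand (68.0 and 215.6) lay 8850 bases apart upstream of RBMX, a splicing regulator, and both were higher in replicate 2. The site upstream of TMEM164 had a weak neighbour 5367 bases on, with 1.44 and 3.26. The remaining 2 pairs within 10 kb were on chromosome 3 at 86325264 and 86327316 and on chromosome 8 at 104735446 and 104735940. The only group of 3 sites linked by steps under 100 kb was on the plus strand of chromosome 9 between LURAP1L and MPDZ, at 12854836 (27.7 and 31.7), 12898285 (27.7 and 58.0) and 12993281 (17.0 and 20.8). All of its sites were on 1 strand.

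Beyond the limit that set facing pairs aside, opposite strands were seldom near. The closest facing region of a remaining site was 165 bases away, at 59741517 on chromosome 15 (72.4 and 15.1), and the widest facing distance among the 86 sites left out was 41 bases. The limit of 110 bases therefore fell in a range of distances with no sites between genes.

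Of 3 measures set beside the recurrent sites in genes, the strand a site lay on was not used by the choice of sites, which asked for the same strand in both libraries but not for a particular one. The plus strand held 48.8% of sites between genes (352 of 721) and 49.2% of the 1166 recurrent sites in genes, an odds ratio of 0.984 (two-sided Fisher's exact test, p = 0.887). No difference was detected. Plus and minus are orientations of the reference sequence, so near-equal shares are likely in any set, and the test cannot show that the sites are alike. Sites were counted as independent although they come from the same pair of libraries. The choice used scores and facing regions, so 2 further shares are given without a test. Replicate 2 had the higher score in 54.1% of sites between genes and 55.6% of those in genes, and another region lay within 10 kb of 6.24% and 6.52%.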

How the data were processed

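Crosslink regions of Cas9 irCLIP were deposited per library as 6-column lists with a score, and regions were not pooled. The authors' deposited score has no stated scale and is, in every region, the sum of the site scores listed beside it. The submitters' processing notes name, with no role, STAR 2.5.2, Bowtie2 2.3.5, UMI-tools, SAMtools and deepTools, and hg38 as build. How regions were called, and how multiply aligned reads were treated, is not stated in the sources used here. Read counts were not used, so depth is unknown, and every interval covers only the counting of sites.

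Sites and lists were chosen with earlier results of these data known. Starts were converted to 1-based positions. Gene spans and names came from RefSeq on GRCh38.p14 (59098 genes on the chromosomes used), and gene strand and sequence from its table of gene starts. Distances run to the nearest span. The comparison grid takes a position every 10 kb from the first to the last gene of each chromosome, with no random draw. Intervals are exact 95% (Clopper-Pearson or Poisson), computed with Python 3.11.15, SciPy 1.17.1 and pandas 2.3.3. The rule was tested on simulated regions.

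Named sites follow a rule: the 10 with the highest summed score, the 5 farthest from and the 5 nearest to a gene, groups of 3 within 100 kb, sites at the score limit, and up to 4 beside each gene list. Any other named site was picked with its values known or completes a small count. The 2 sites 43 bases from a gene tied for the fifth nearest. The planned analyses of repeats, base composition and genome copies needed a genome and were not run, so the planned comparison with sites in genes used other measures, chosen after the files were seen, of which 1 was tested. A chromosome without entries in the table of starts was left out of strand counts.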

Additional observations from a re-analysis of the deposited data

Results flagged for a closer look

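Outside chromosomes 1 to 22 and X, which no comparison used, 15 regions were identical in both libraries. Their neighbourhood was not analysed here.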

How the results depend on the processing

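The number of sites, 721, stayed within 1.5 times of itself with overlap or a distance of 5 bases in place of identity (734 and 767), with no score limit or a limit of 100 (812 and 547), at least 1 kb from genes (671), against protein-coding and long noncoding genes only (742), and with pairs kept or a wider pair limit (807 and 718). It moved to 452 at least 10 kb from genes. Single libraries held 1445 to 1785 such regions. The median distance was 16145 to 17506 bases in single libraries and moved to 23089 against protein-coding and long noncoding genes only, a table with fewer genes. The share downstream of the nearest gene of known strand was 51.5%, 51.5% to 53.2% in single libraries, and moved to 44.7% against the nearest protein-coding gene and 47.5% over the 337 sites whose nearest gene of all has a known strand. The share on the gene strand was 50%, 49.6% to 50.7% in single libraries, 48.6% with scores below 100, and 48.4% over those 337 sites, a setting added after the data were seen. The correlation with length between genes was 0.91, 0.92 in each single library (0.918 to 0.923), and 0.95 with gaps of 1 Mb or more left out of the length only. The cause of these shifts was not tested. The odds ratio of the plus strand against sites in genes was 0.984 and turned to 1.03 in each single library, with p from 0.582 to 0.965 over all settings (Fisher's exact test). This comparison cannot show whether the sets are alike. Another region lay within 10 kb of 4.36% to 4.82% of sites in single libraries, where 1 list is searched, and replicate 2 was higher in 49.0% of sites with scores below 100. The Spearman correlation of the scores was 0.59, and 0.60 at least 10 kb from genes. The settings on sequence windows, soft-masking and exact copies were not run. No paired analysis was possible because there is 1 group. Depth is unknown, so a low score and low coverage cannot be told apart.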
